A study of Mus musculus with 18 samples.

Results

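The consensus list of accessible regions held 377 peaks at transfer RNA (tRNA) genes, out of 211682 peaks in all. A peak was taken when at least 1 of its bases lay within 1000 bp of a nuclear gene that the RefSeq annotation of mouse build GRCm38.p6 gives the type tRNA. Of 403 such genes, 287 had a peak in that window and 116 had none, while a window of that width would hold a peak at 17.1% of positions of the nuclear chromosomes. The assay was ATAC-seq, where the transposase Tn5 cuts open chromatin and tags the fragments for sequencing.

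The 18 libraries came from primary cortical neurons of CD1 mouse embryos (embryonic day 14.5 to 15), grown with the mitotic inhibitor cytosine arabinoside at 2 µM, transduced with lentiviral short hairpin RNAs (shRNAs) on day 6 and taken on day 11. All carried a pair of shRNAs. The groups were control with scrambled shRNA (5 libraries), control with Atf4 shRNA (3 libraries), Opa1 with scrambled shRNA (5 libraries) and Opa1 with Atf4 shRNA (5 libraries). Atf4 is a transcription factor of the integrated stress response, and Opa1 is needed for fusion of the inner mitochondrial membrane. The study asked which accessible regions depend on Atf4, but the analysed file is a single list with no value for a library or a group, so nothing below can be assigned to a knockdown. The promoter driving the shRNAs, the cells that escaped transduction and the depth of each library are not stated in the labels. In such bulk samples a region open in few cells and a region weakly open in many cannot be told apart.

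tRNA genes are short genes read by RNA polymerase III. Their promoter lies inside the transcribed sequence, as an A box near the start and a B box towards the end, both bound by the factor TFIIIC, which places TFIIIB just upstream of the gene and through it the polymerase. The product is trimmed, modified, joined to its amino acid by an aminoacyl-tRNA synthetase and then reads codons at the ribosome through its anticodon. Many genes encode the same tRNA, often in arrays, and only some of them are read in a given cell type. In neurons, tRNA supply and tRNA charging are tied to the stress response that Atf4 belongs to.

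The sequences of some of these genes are shown first, since the internal promoter lies within the accessible regions described below. They could be read where a gene fell inside a 300-base promoter window or a microRNA hairpin of the RefSeq tables (GRCm38.p6). That held for 5 genes in full (4 in promoters and 1 in a hairpin) and for 6 more in part. The letters GTTCNANNC, the core of the B box, were searched on both strands and are in capitals. They occurred in 5 of 5 whole genes, against 3063 of 32851 promoter windows (9.32%). Since the B box is part of the tRNA gene promoter, the first count was largely set in advance. The windows are longer than these genes and include those that hold tRNA genes, so the shares are not matched. Such a match describes letters and does not show binding. The first 5 sequences belong to genes under a peak and the last, of which 62 of 72 bases could be read, to a gene with none.
n-TTagt9 (threonine): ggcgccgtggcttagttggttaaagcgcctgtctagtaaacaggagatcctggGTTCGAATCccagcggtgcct
n-TRtcg5 (arginine): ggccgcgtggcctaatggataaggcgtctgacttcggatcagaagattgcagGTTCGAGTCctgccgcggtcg
n-TAagc16 (alanine): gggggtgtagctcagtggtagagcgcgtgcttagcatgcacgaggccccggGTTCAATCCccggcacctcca
n-TVcac9 (valine): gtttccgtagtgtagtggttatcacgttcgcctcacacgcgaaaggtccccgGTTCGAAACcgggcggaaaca
n-TItat14 (isoleucine): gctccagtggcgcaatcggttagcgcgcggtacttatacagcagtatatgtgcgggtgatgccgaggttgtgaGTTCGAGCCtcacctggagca
n-THgtg7 (histidine, first 62 bases): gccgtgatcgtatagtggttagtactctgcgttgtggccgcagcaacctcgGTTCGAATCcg

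The core letters were thus also present at the histidine gene without a peak, chr3:96452495-96452566, whose nearest peak lay 16187 bp away. The gene n-TItat14, chr13:21896938-21897031, is 94 bp long, is annotated inside the microRNA hairpin Mir1983 and lay under a peak of 1088 bp (chr13:21896603-21897690). The gene n-TTagt9, chr7:35234770-35234843, lay under a peak of 1154 bp, the gene n-TAagc16, chr13:21222586-21222657, under one of 827 bp and the gene n-TVcac9, chr13:23446142-23446214, under one of 919 bp.

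A pair of these genes sits at the start of a protein-coding gene of interest here, and the whole promoter windows are shown with the tRNA gene in capitals. Polg encodes the catalytic subunit of the mitochondrial DNA polymerase. Polr3e encodes a subunit of RNA polymerase III itself. The Polg window is chr7:79466224-79466523 on the minus strand, in which n-TRtcg5 reads the opposite way, judged by the strand of the core letters. The Polr3e window is chr7:120917528-120917827 on the plus strand and holds 71 of the 82 bases of n-TLaag4, a leucine tRNA gene that reads the same way.
Polg promoter: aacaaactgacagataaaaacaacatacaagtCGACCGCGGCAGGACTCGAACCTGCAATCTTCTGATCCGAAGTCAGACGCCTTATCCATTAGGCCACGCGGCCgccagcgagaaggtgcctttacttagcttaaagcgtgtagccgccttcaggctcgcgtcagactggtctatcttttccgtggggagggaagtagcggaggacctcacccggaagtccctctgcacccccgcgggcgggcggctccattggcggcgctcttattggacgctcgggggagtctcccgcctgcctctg
Polr3e promoter: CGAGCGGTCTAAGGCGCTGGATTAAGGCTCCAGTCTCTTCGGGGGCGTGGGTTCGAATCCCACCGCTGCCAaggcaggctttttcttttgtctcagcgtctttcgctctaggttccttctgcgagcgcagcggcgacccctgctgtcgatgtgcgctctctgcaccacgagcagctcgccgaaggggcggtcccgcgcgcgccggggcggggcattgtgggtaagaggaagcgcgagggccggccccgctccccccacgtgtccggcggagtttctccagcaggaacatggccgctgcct

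Both windows lay under 1 peak each, of 1297 bp at Polg (chr7:79465712-79467008) and of 1451 bp at Polr3e (chr7:120917464-120918914). Each of these peaks therefore counted both as a peak at a tRNA gene and as a peak at a protein-coding gene end. Which of the overlapping genes the accessibility belongs to cannot be told apart in such places.

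Most nuclear tRNA genes had a peak, and the peak lay on the gene itself. The share with a peak in the window was 71.2% (exact Clopper-Pearson 95% interval 66.5 to 75.6, n = 403 genes). All intervals here cover counting error over genes, which are not replicates and can share a peak. The share of positions with a peak in such a window was 17.1%. Small nuclear RNA genes had a peak in the window in 17.0% of 997, small nucleolar RNA genes in 16.5% of 1330 and microRNA genes in 36.2% of 1228. Protein-coding genes had one near either end (within 1000 bp) in 70.4% of 21774, over 2 windows a gene where a tRNA gene has 1.

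The peak overlapped at least 1 base of the tRNA gene at 272 genes (67.5%, interval 62.7 to 72.0), and 267 of them lay wholly inside it. A stretch as long as a tRNA gene would have touched a peak at 4.67% of positions. At the other 15 genes with a peak in the window the nearest one lay 18 to 960 bp off. The midpoint of the covering peak was within 200 bp of the gene's midpoint at 180 genes (66.2%), and the median distance between the midpoints was 134 bp. Near the limit of the window, n-TAcgc3 (alanine) with a peak at 912 bp and n-TCgca41 (cysteine) at 960 bp were counted, and n-TDgtc7 (aspartate) at 1017 bp was not.

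The share of tRNA genes inside a peak was highest at the gene and fell off within 2000 bp. It was 67.5% at the gene midpoint, 48.1% at 200 bp to either side, 35.9% at 500 bp, 18.5% at 1000 bp and 7.44% at both 2000 and 5000 bp. For the 297 tRNA genes more than 5000 bp from every protein-coding gene end the value at the midpoint was 59.3%. At the ends of protein-coding genes it was 30.8% (n = 43548 ends), at microRNA genes 16.9% and at small nucleolar RNA genes 5.49%. The last is a class whose genes mostly lie in introns of other genes. Both ends of each protein-coding gene were pooled, since the gene positions used come without a strand. The promoter windows shown above carry a strand but were not used for this comparison. The 30.8% is therefore not a value for gene starts alone.

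**Figure D1:**
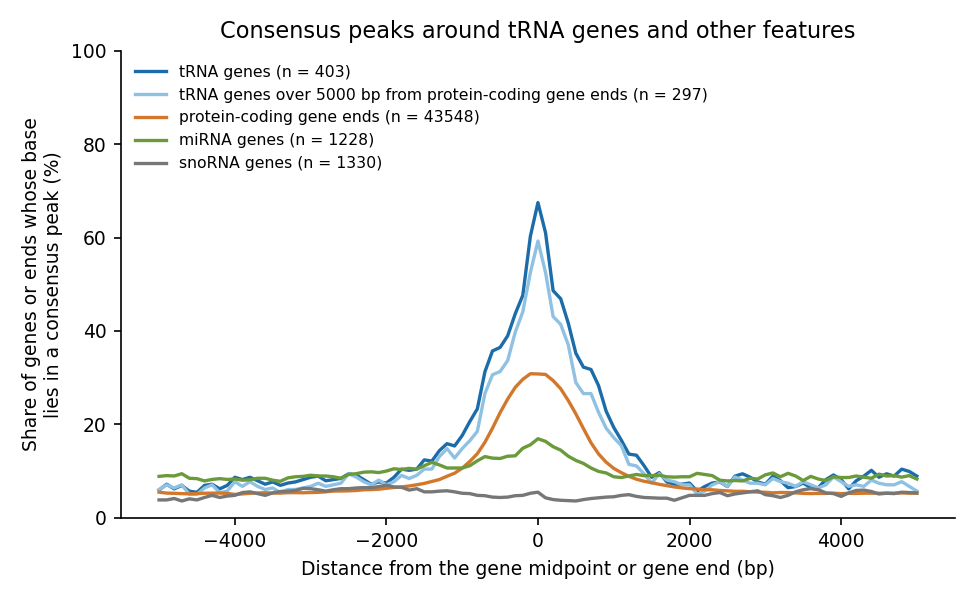
Share of features whose base at each distance (bp, horizontal axis) lies in a consensus peak (%, vertical axis), for tRNA genes and 3 other kinds of feature, with n in the key. The line of the 403 tRNA genes reaches 67.5% at the midpoint and that of small nucleolar RNA genes 5.49%. The line of protein-coding gene ends pools both ends of each gene, so it is not that of gene starts alone.

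Several peaks often stood around 1 tRNA gene, and 1 peak often served several. In the window, 111 genes had 1 peak, 95 had 2, 54 had 3, 22 had 4 and 5 had 5. Of the 377 peaks, 232 lay over a tRNA gene, 34 lay over more than 1, and none lay over more than 4. Of all 377, 142 fell in the windows of more than 1 gene. The 377 peaks were 0.178% of all nuclear peaks.

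All 20 amino acids had at least 1 tRNA gene with a peak, and cysteine stood lowest. The GCA anticodon of cysteine is carried by 57 genes, of which 13 had a peak in the window (22.8%, interval 12.7 to 35.8) and 10 had it over the gene. For the other 19 amino acids together the count was 274 of 346 (79.2%, interval 74.5 to 83.3). The difference from cysteine rested on 1 array on chromosome 6, described below, since outside it 7 of 9 cysteine genes had a peak (77.8%). The cysteine share was 36.8% with a window of 2500 bp and 12.3% with peaks of at least 500 bp. The share of positions with a peak in the wider window was not measured.

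Among amino acids with at least 10 genes, the lowest shares after cysteine were those of lysine, 16 of 26 genes (61.5%), and histidine, 7 of 11 (63.6%). The highest were those of arginine, 22 of 24 (91.7%), tyrosine, 9 of 10 (90.0%), and threonine, 15 of 17 (88.2%). The interval was 40.6 to 79.8 for lysine and 73.0 to 99.0 for arginine, and differences between amino acids were not tested. Phenylalanine with 7 of 7 genes and tryptophan with 8 of 8 had a peak at every gene.

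The others lay between these. Alanine had a peak at 22 of 33 genes, aspartate at 11 of 16, asparagine at 9 of 13, glutamate at 15 of 20 and glutamine at 12 of 16. Serine had one at 17 of 22, glycine at 22 of 28, isoleucine at 13 of 16 and valine at 19 of 22. Methionine, which holds the initiator and elongator tRNAs under the same anticodon, had one at 14 of 16, proline at 14 of 16 and leucine at 22 of 25. The median over the 20 amino acids was 79.9%.

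**Figure D2:**
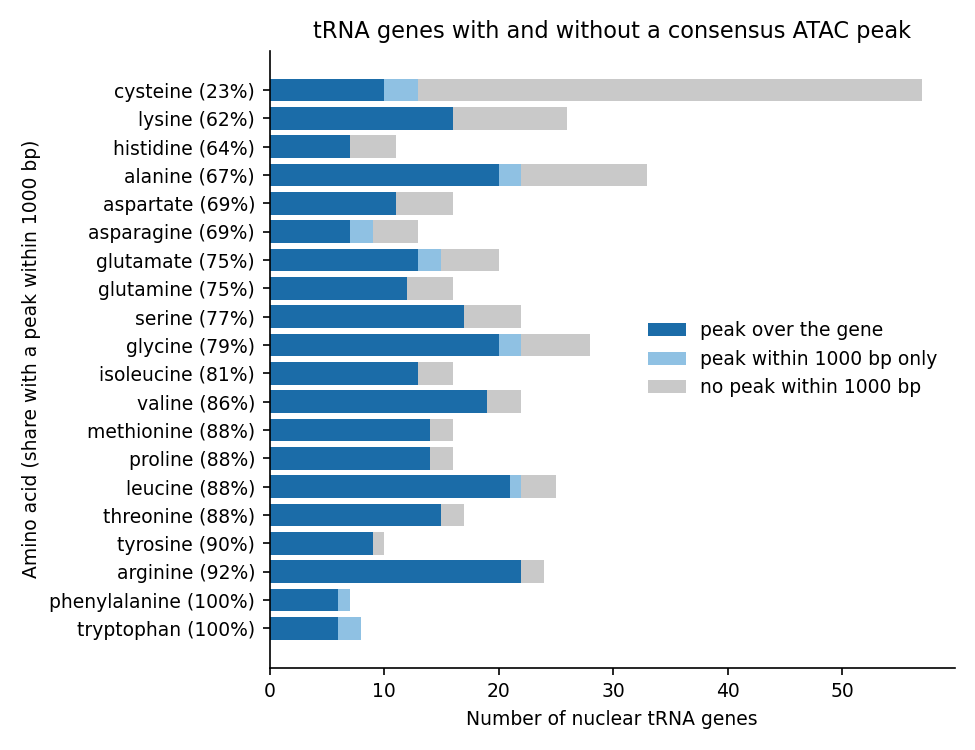
Number of nuclear tRNA genes (horizontal axis) of each amino acid (vertical axis), split into those with a peak over the gene, those with a peak only within 1000 bp and those with none. Cysteine is the single long bar that is mostly without a peak, at 13 of 57 genes.

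For alanine and lysine the share differed between places. For alanine, 21 of 21 genes outside the X chromosome had a peak, while on X 1 of 12 had one. For lysine, 12 of 13 genes within clusters had a peak, against 4 of 13 elsewhere. These splits were chosen after the values were seen.

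By anticodon, 46 of 48 had at least 1 gene with a peak. The remaining pair are single genes, namely n-THatg1 (histidine ATG, chr1:171669439-171669511), 2664 bp from the nearest peak, and n-TSgga1 (serine GGA, chr11:100538158-100538230), 6760 bp from it. Of the 43 anticodons with at least 3 genes, 17 had a peak at every gene. tRNA genes are 70 to 107 bp long, with a median of 72 bp, and longer ones often hold an intron or a long variable arm. Of the 21 longer than 85 bp, 19 had a peak.

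The arginine TCT genes include n-TRtct5, known for its expression in the nervous system, and 4 of the 5 had a peak. The gene n-TRtct5 (chr1:173390329-173390402, inside Aim2) lay under a peak of 1053 bp, chr1:173389573-173390625, and 22190 bp from the nearest protein-coding gene end. The peak over n-TRtct2 on chromosome 3 was 1934 bp wide, with the gene at its edge and the midpoints 928.5 bp apart. That over n-TRtct1 on chromosome 19 was 780 bp and that over n-TRtct4 on chromosome 11, inside Hes7, was 182 bp. The last pair each had 4 peaks in the window. The gene n-TRtct3 on chromosome 13 had none in the window, the nearest lying 1853 bp away.

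Clusters were taken as runs of at least 3 genes with gaps of at most 50 kb. There were 20 clusters with 280 genes, of which 200 had a peak (71.4%, interval 65.8 to 76.6). Outside clusters 87 of 123 had one (70.7%, interval 61.9 to 78.6). The nearness of these shares depended on which peaks were counted, and the difference turned direction between settings. With peaks of at least 500 bp only, the share was 51.4% in clusters (interval 45.4 to 57.4) and 67.5% outside (58.4 to 75.6). Without peaks near protein-coding gene ends (within 1000 bp), it was 67.5% in clusters (61.7 to 73.0) and 45.5% outside (36.5 to 54.8). In that setting the tRNA genes beside those ends stayed in the count. The covering peak lay near such an end at 21 of 191 covered genes in clusters, 8 of 26 in pairs and 25 of 55 single genes. A larger fall outside clusters was therefore built in. Without the cysteine array of chromosome 6 the share in clusters was 194 of 232 (83.6%). Genes in pairs had a peak at 26 of 26, and single genes at 61 of 97 (62.9%).

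The clusters differed widely. In 10 of them, with 72 genes, every gene had a peak, and in 1 none had. The cluster of 18 genes on chromosome 11, chr11:69037003-69125248, had a peak at 18 of 18. It carries 14 anticodons for 11 amino acids among genes that include Ctc1, Aurkb, Per1 and Hes7. Its 88.2 kb held 35 peaks (39.7 per 100 kb), of which 18 lay outside the windows of tRNA genes.

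The clusters of chromosome 13 lie around the large histone gene cluster. At chr13:21160785-21326789 22 of 24 tRNA genes had a peak, at chr13:21848022-22050767 28 of 32 and at chr13:23397060-23530419 35 of 36. With the smaller cluster chr13:23270421-23317538, where 9 of 9 had a peak, these came to 94 of 101 (93.1%, interval 86.2 to 97.2). The peaks over these genes were narrower than in other clusters, with a median of 492 bp over 93 genes against 667 bp over 98 genes.

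The array on chromosome 6, chr6:48133937-48363603, holds 48 genes, all of them cysteine GCA, in 229.7 kb. A peak stood in the window of 6 (12.5%, interval 4.73 to 25.2) and over 3. The longest run of genes without a peak was 27. The whole span held 13 peaks (5.66 per 100 kb), which covered 2.45% of its length. The covered genes were n-TCgca32 under a peak of 269 bp, n-TCgca30 under one of 911 bp and n-TCgca29 under one of 250 bp. The others with a peak in the window had it 224 bp (n-TCgca40), 889 bp (n-TCgca33) and 960 bp (n-TCgca41) away.

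On the X chromosome, the alanine array chrX:136357602-136430436 had a peak at 0 of 8 genes (exact interval up to 36.9%) and held 1 peak in 72.8 kb. The neighbouring alanine cluster chrX:136553725-136590436 had a peak at 1 of 4.

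**Figure D3:**
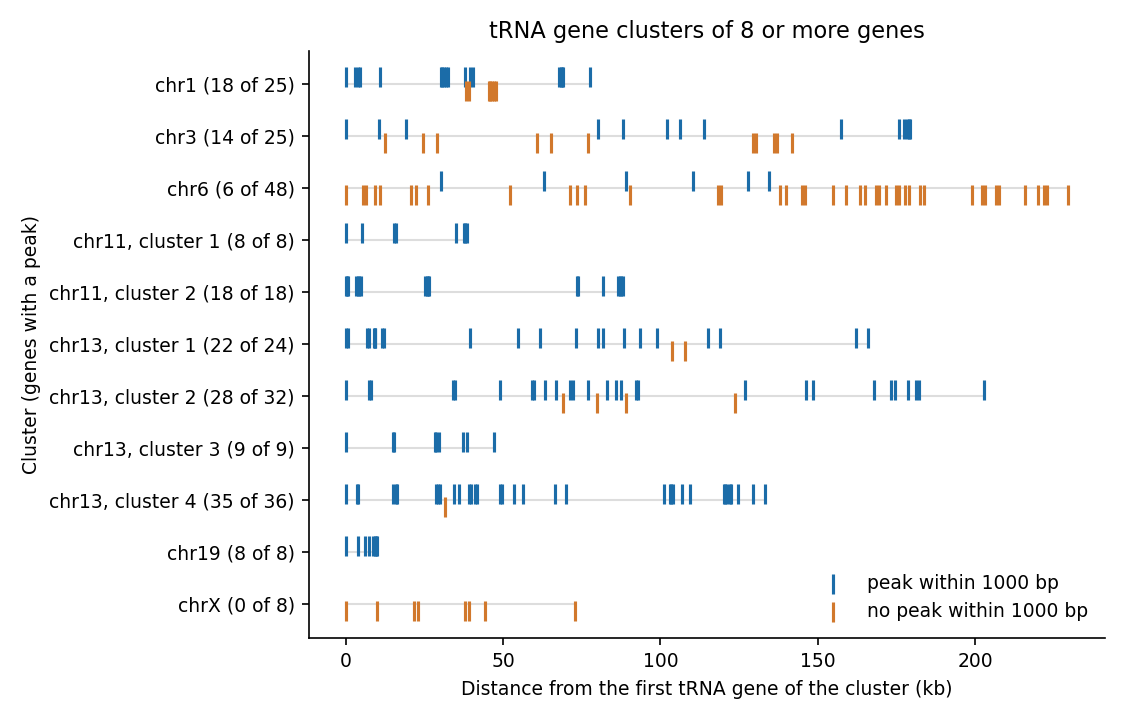
The 11 clusters of 8 or more tRNA genes (vertical axis, with genes that have a peak and all genes), drawn to scale by distance from the first gene (kb, horizontal axis). Ticks stand for genes, blue and raised with a peak within 1000 bp, orange and lowered without. The cysteine array of chromosome 6 is nearly all orange and the chromosome 11 cluster of 18 all blue.

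The cluster chr1:171033942-171111515 had a peak at 18 of 25 genes, and its state changed along a repeated unit. The unit has 5 genes in the order glutamate CTC, glycine TCC, aspartate GTC, leucine CAG and glycine GCC, and stands 3 times in a row at distances of 7574 to 7671 bp. In the first copy, n-TEctc5, n-TGtcc1, n-TDgtc3, n-TLcag6 and n-TGgcc12 all lay under a peak and had 2 to 4 peaks in the window. In the second copy, n-TGgcc13 lay under a peak, n-TEctc8 had one 531 bp away and n-TLcag7 one 380 bp away, while n-TGtcc5 at 1073 bp and n-TDgtc7 at 1017 bp had none in the window. In the third copy no gene had a peak, with distances of 1157 bp (n-TEctc7), 1699 bp (n-TGtcc4), 2358 bp (n-TDgtc6), 2984 bp (n-TLcag8) and 3627 bp (n-TGgcc14).

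Genes of the same anticodon at the same place in the unit thus differed in state from one copy to the next. The copies also differed in their distance to the nearest protein-coding gene end, that of Fcgr3, an antibody receptor gene. It was 69 to 1680 bp in the first copy, 5877 to 8387 bp in the second and 13491 to 15961 bp in the third. In the first copy the peaks over n-TDgtc3, n-TLcag6 and n-TGgcc12 lay 359, 0 and 623 bp from that end. Other genes of these anticodons in the cluster had peaks far from gene ends. Later in it, n-TLcag9, n-TDgtc5, n-TGtcc3 and n-TEctc6 lay under 1 peak, 10370 bp from a protein-coding gene end. Earlier in it, n-TDgtc4, n-TGtcc2, n-TLcag3 and n-TGgcc4 lay under peaks 5821 to 8727 bp from one. The reads were 50 bp long, and the handling of those that map to several places is not stated in the labels or processing notes. The part of gene-end distance and of such reads in the difference between copies was not tested. Nor was that of such reads in the chromosome 6 array. The sequences of these genes were not analysed here.

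The cluster chr3:96322074-96501518 had a peak at 14 of 25 genes, in alternating stretches over 179 kb. Its last 6 genes, from n-TQctg3 to n-TEctc13, all lay under a peak. Just before them stood a run of 5 without, n-TNgtt11, n-THgtg7, n-THgtg9, n-TNgtt13 and n-THgtg1, each 10654 to 16556 bp from a peak. The histidine genes n-THgtg6, n-THgtg2 and n-THgtg8 of the same cluster lay under peaks of 883, 980 and 1025 bp. The chromosome 1 and chromosome 3 clusters of 25 genes held 18 of the 116 genes without a peak, the chromosome 6 array 42, the X chromosome 15, and all other places 41.

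By chromosome, the share of tRNA genes with a peak was above the share of positions on all 19 chromosomes that carry them. On chromosome 13, with the most genes, it was 96 of 105 (91.4%, against 18.0% of positions), and it was 57.1% when peaks under 500 bp were left out. On chromosome 11 it was 41 of 47 (87.2%, against 23.3%), on chromosome 19 10 of 10, on chromosomes 14 and 17 11 of 12 each, and on chromosome 10 10 of 11. On chromosome 1 it was 26 of 37 (70.3%) and on chromosome 3 26 of 40 (65.0%).

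The low end was held by chromosome 6 with 10 of 53 (18.9%, against 17.4% of positions) and by X with 2 of 17 (11.8%, interval 1.46 to 36.4, against 4.88%). Chromosome 6 without the cysteine array had 4 of 5. The whole chromosome, array included, had 34.0% with a window of 2500 bp, for which the share of positions was not measured. On X the peaks at both genes lay near protein-coding gene ends, so leaving such peaks out gave 0 of 17 by construction. Chromosome 15 had 1 of 4.

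**Figure D4:**
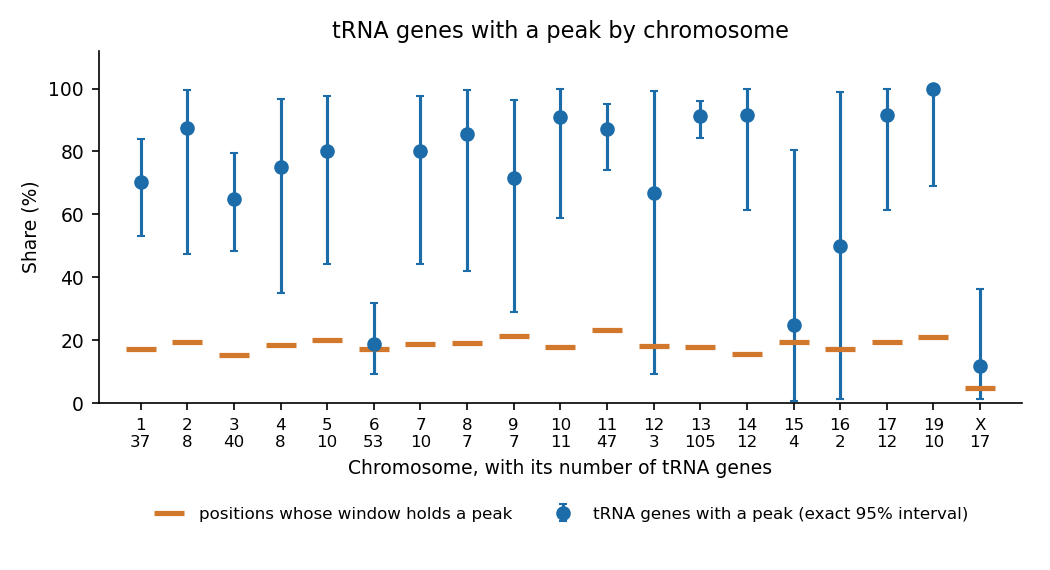
Share (%, vertical axis) of tRNA genes with a peak within 1000 bp on each chromosome (horizontal axis, with its number of tRNA genes), as points with exact 95% intervals, and the share of positions whose window holds a peak, as orange dashes. The points of chromosome 6 (18.9%) and X (11.8%) lie near their dashes and that of chromosome 13 (91.4%) far above its own.

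tRNA genes with a peak stood closer to protein-coding genes than those without. All 49 tRNA genes that lay 1000 bp or less from a protein-coding gene end had a peak. No matched share of positions is given for places so near gene ends, where peaks were commoner. The ends themselves lay in a peak in 30.8% of cases, against 5.38% of bases 5000 bp to either side. Of the other 354 tRNA genes, 238 had a peak (67.2%, interval 62.1 to 72.1). For positions so far from gene ends, a window would hold a peak at 16.3%. That share is a reference for the 354 genes only. At 1000 to 5000 bp the count was 47 of 57, at 5000 to 10000 bp 68 of 79 and at 10000 to 50000 bp 111 of 146 (76.0%). Beyond that it was 5 of 41 up to 100 kb and 7 of 31 farther out. With X and the cysteine array left out, these last counts were 111 of 134 (82.8%), 4 of 10 and 2 of 13.

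The median distance to a protein-coding gene end was 8122 bp for tRNA genes with a peak and 51643 bp for those without. Without X and the cysteine array it was 8069 bp and 15965 bp. Within 100 kb, genes with a peak had a median of 17 other peaks and 6 protein-coding genes, and genes without had 10 and 2. With the same genes left out these medians were 17 and 6 for 279 genes with a peak, and 13 and 3 for 59 without. Of tRNA genes inside a protein-coding gene 23 of 34 had a peak (67.6%, interval 49.5 to 82.6), and of those outside 264 of 369 (71.5%, interval 66.6 to 76.1), so that the intervals overlapped.

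Of the 116 genes without a peak, 14 had one between 1000 and 2000 bp, 50 had none within 10 kb, and the median distance was 8050 bp. The farthest was n-TKctt5 (lysine CTT, chr11:74137315-74137387), 193903 bp from any peak, whose nearest protein-coding gene is the olfactory receptor gene Olfr401. It was followed by n-TKctt9 on chromosome 3 at 119854 bp, n-TRcct4 on X at 85101 bp, n-TVcac1 on chromosome 3 at 67435 bp and n-TVcac5 on chromosome 6 at 53552 bp. All of these 5 are single genes.

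A wide peak overlaps a gene more readily than a narrow one, so the widths of peaks over a tRNA gene were set beside those of other peaks weighted by the number of places at which a stretch of 72 bp would overlap them. This reference was chosen after the values were seen, and no test was made. Among peaks over 1000 bp from every protein-coding gene end, the 187 that lay over a tRNA gene had a median width of 609 bp (quartiles 395 and 1002), and 61.0% were at least 500 bp wide. The 188867 other peaks so far from gene ends had a weighted median of 514 bp (quartiles 365 and 745), with a weighted share of 52.1% at 500 bp or more. Unweighted, their median was 413 bp. Peaks beside a tRNA gene but not over it had a median of 294.5 bp (n = 118).

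Near gene ends, the 45 peaks over a tRNA gene had a median of 1060 bp, and the 22430 other peaks there had a weighted median of 1145 bp and an unweighted one of 784 bp. All 377 peaks together had a median of 461 bp and ran from 117 to 2154 bp. The deposited score could not rank them, since it was at its ceiling of 1000 for all but 2.

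**Figure D5:**
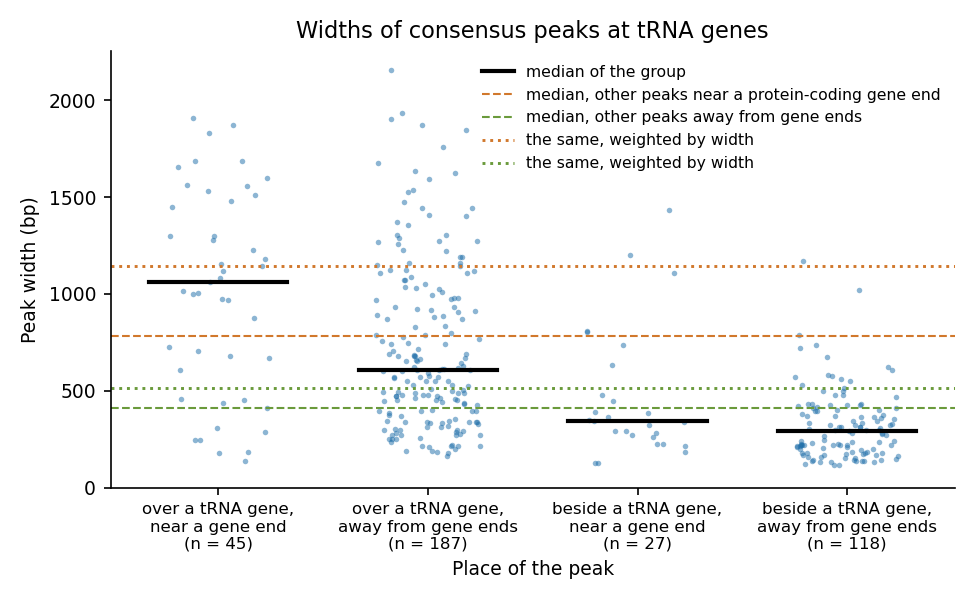
Width (bp, vertical axis) of each of the 377 peaks at tRNA genes, in 4 places (horizontal axis), with black lines at the medians, dashed lines at the medians of other peaks and dotted lines at those medians weighted by width (orange near gene ends, green away from them). For peaks over a tRNA gene the dotted lines are the reference, with 609 bp against 514 bp away from gene ends and 1060 bp against 1145 bp near them.

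Covering peaks were wider at pairs and single genes than in clusters. Their median over 26 genes in pairs was 1260 bp and over 55 single genes 1154 bp, and 25 and 52 of these genes had a peak of at least 500 bp. The covering peak was near a protein-coding gene end at 8 of the genes in pairs, at 25 of the single genes and at 21 of the genes in clusters. Away from gene ends the medians were 1260 bp for 18 genes in pairs, 1090 bp for 30 single genes and 581 bp for 170 genes in clusters.

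The widest peak at a tRNA gene, chr1:165641218-165643371, was 2154 bp wide and lay over the proline genes n-TPagg2 and n-TPcgg2. Next came 1934 bp over n-TRtct2, chr3:122292952-122294885, where the gene lay at the edge of the peak. Then came 1906 bp over the arginine genes n-TRcct5, n-TRcct3 and n-TRtcg4, chr11:115412193-115414098, the only one of these widest peaks at a protein-coding gene end. A further pair of proline pairs followed, n-TPtgg8 with n-TPagg7 under 1901 bp, chr7:98814797-98816697, and n-TPtgg7 with n-TPagg5 under 1872 bp, chr3:51357711-51359582. The next widest away from gene ends, 1845 bp at chr1:171101698-171103542, lay over 4 genes, n-TLcag9, n-TDgtc5, n-TGtcc3 and n-TEctc6.

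The genes that make and process tRNAs had peaks at their ends in nearly every case. Of 86 genes on the lists, 84 had a peak within 1000 bp of either end (97.7%), beside 70.4% of all protein-coding genes. Widths given for these genes are those of the widest such peak, which may lie at either end or belong to a neighbouring gene. The peak of Gtf3c1 lay wholly outside the gene, those of Sars and Xpot nearly so, and that of Polr2h for the most part. At Polr3b, Polr3gl, Gtf3c6, Rpp25, Tsen15 and Aars the widest peak also lay wholly outside the gene. All 18 genes listed for subunits of RNA polymerase III had one, Polr3g and Polr3gl being alternative forms of 1 subunit. The peak was widest at Polr2h (2495 bp) and Polr1d (1636 bp), which are shared with other polymerases. All 6 subunits of TFIIIC had one, including Gtf3c1, which binds the B box, with a peak of 1942 bp beside the gene. The 4 genes of TFIIIB and its alternatives had one, with 1337 bp at Brf1.

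Maf1, the repressor of RNA polymerase III, had 3 such peaks, the widest of 599 bp. Ssb, which encodes the La protein that binds the ends of new transcripts, had 1 of 1822 bp. Among 32 genes for tRNA processing and modification 31 had a peak, including Pus1 (1767 bp), which makes pseudouridine, and Xpot (1590 bp), which exports tRNA from the nucleus. Rpp40, a subunit of ribonuclease P, had none.

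Among 20 cytosolic aminoacyl-tRNA synthetase genes 19 had a peak, widest at Sars (2066 bp) and Yars (1631 bp), and Eprs had none. All 4 genes of the selenocysteine pathway had one, and the selenocysteine tRNA gene itself was not analysed here. Peaks at these ends, like those at tRNA genes, mark accessibility and not transcription.

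Of markers of the labelled cell type, 7 of 7 pan-neuronal genes had a peak at a gene end, among them Rbfox3, Map2 and Snap25. Since 70.4% of all protein-coding genes had one, this count says little about the cell type. A peak at a gene end also stood at 2 of 4 astrocyte markers (Gfap and Slc1a3), 1 of 4 microglia markers (Cx3cr1) and 2 of 4 oligodendrocyte lineage markers (Mbp and Olig2). In all these counts a gene's start was not told apart from its other end. For Gfap and Cx3cr1 the only such peak stood at the end with the lower coordinate. Aqp4, Aldh1l1, Aif1, P2ry12, C1qb, Mog and Cspg4 had none. The part of other cell types in the peaks at tRNA genes was not tested.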

How the data were processed

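ATAC-seq was done on 18 libraries of cortical neurons in 4 groups, sequenced as 50 bp read pairs per the labels. The deposited consensus list gives each peak a position and a score, whose value the authors set at a ceiling of 1000 for 98.5% of peaks, so it was not used to rank them. MACS2, deepTools, MultiQC and the build mm10 are named in the submitters' processing notes, without versions. The aligner, the transposase shift, the treatment of duplicate and multiply mapped reads, and which samples entered the list are not stated in the labels or notes. The list has no value per library, so depth is unknown.

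Gene positions were taken from RefSeq's GRCm38.p6 table, which holds no strand or exons. Of its 430 tRNA genes, 22 mitochondrial and 5 on scaffolds were left out. A peak counted from 1 shared base. Shares have exact Clopper-Pearson 95% intervals, and no test was made. Genes were named by these rules: clusters of at least 10 genes, the 3 highest and 3 lowest amino acids, the arginine TCT genes, the 5 widest peaks, the 5 genes farthest from a peak, and pathway lists. Genes outside them, among them the repeated unit of chromosome 1 and the genes with sequences, were picked with their values in view. The members and lists were chosen with earlier results of these data known. The overlap search was tested on simulated data. The scripts ran under Python 3.11.15 with matplotlib 3.10.9, scipy 1.17.1, pandas 2.3.3 and numpy 2.4.6.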

Additional observations from a re-analysis of the deposited data

How the results depend on the processing

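Over 13 alternatives, 76 of 104 comparisons stayed within the main interval or, for counts, within 1.5 times, and 28 moved. With a window of 2500 bp the share with a peak was 76.9% for all tRNA genes, 36.8% for cysteine, 83.5% for other amino acids, 78.2% in clusters, 34.0% on chromosome 6 and 73.7% away from protein-coding gene ends. The share of positions with a peak in that wider window was not measured. With no flank there were 232 peaks of median width 666.5 bp. With peaks of at least 500 bp only, 171 peaks of median width 933 bp stood at tRNA genes, and the shares were 56.3% for all, 12.3% for cysteine, 63.6% for other amino acids, 51.4% in clusters, 57.1% on chromosome 13, 46.4% over the gene and 51.1% away from gene ends. Without peaks near protein-coding gene ends they were 60.8% for all, 67.9% for amino acids other than cysteine, 45.5% outside clusters and 0% on X. The tRNA genes beside those ends stayed in the count, so part of each fall, and the 0% on X, was built in. Among genes over 10000 bp from gene ends the share was 56.4%. Without the cysteine array of chromosome 6, an alternative chosen after seeing the data, they were 79.2% for all, 77.8% for cysteine, 83.6% in clusters, 80.0% on chromosome 6, 75.8% over the gene and 75.8% away from gene ends. These alternatives differ from the main values in the peaks or genes they count. No cause beyond that was tested.

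No paired analysis was possible because the list holds no value per library. For the same reason the planned fit between the 4 groups, its replicate block and leaving out each replicate were not run. Depth is unknown, so a tRNA gene without a peak is one where none was called, not one shown to be closed.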

Other observations

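The number that ends a tRNA gene's symbol, whose meaning is not given in the table used here, went with the presence of a peak. This was seen in the data and is given as a description with no test. Within the 35 anticodons other than cysteine that have at least 4 genes, 106 of 152 genes in the lower-numbered part had a peak (69.7%), and 144 of 167 in the higher-numbered part (86.2%). Outside clusters the counts were 29 of 57 (50.9%) and 47 of 53 (88.7%), and within clusters 77 of 95 (81.1%) and 97 of 114 (85.1%). For cysteine they were 0 of 28 and 13 of 29 (44.8%). Of those 13 genes, 6 lay in the chromosome 6 array and 7 outside it. The array holds nearly all of the lower-numbered cysteine genes, so number and place were not separated.

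Among the 22 mitochondrial tRNA genes, which lie outside the rule, 17 lay under one of 8 peaks on the mitochondrial genome and 5 did not. The share of mitochondrial positions under these peaks was not measured. The count can therefore not be read as a trait of the tRNA genes.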
